A study of Mus musculus with 12 samples.

Results

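The transcripts described here encode 8 leukocyte adhesion molecules of the vascular and stromal surface, Vcam1, Icam1, Icam2, Madcam1, Mcam, Alcam, Sele and Selp. They were taken by symbol and all 8 were found among the 27179 Entrez gene IDs that were counted. The set was chosen by family and from the measured level of Vcam1 in these libraries, so the levels below are a description, with no test. The cells were NIH3T3, immortalized fibroblasts from mouse embryos, in all groups RelA-/- and carrying RelA-DsRed, that is, the p65 subunit of the transcription factor NF-κB joined to a red fluorescent protein. The labels name 4 groups of 3 samples, exposed in microfluidic devices for 2 h, and PolyA RNA was sequenced. IL-1b was given at 0.2 ng/mL, LPS at 100 ng/mL and PAM at 0.2 ng/mL, and the remaining group had media. The labels do not say whether the line is a single clone or whether the replicates were separate cultures.

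Counts of their own exist here for the IL-1 samples alone. The 9 deposited tables labelled LPS, PAM or media equal that of IL-1 replicate 3 byte for byte and name its alignment, so no stimulus could be set against media and no test between groups was run. Every value below is a level in IL-1-treated cells and does not show whether IL-1 changed it. The 3 libraries held between 17254518 and 18578859 counts, and SDs over them may be technical. Rela had 641, 551 and 723 counts, in which transcripts of the fusion and any of the deleted locus cannot be told apart. Il1r1, the gene of the signalling IL-1 receptor, had 864, 874 and 958 counts. Replicate 1 stood apart in the sum of 8 interferon-stimulated genes picked with earlier results of these data known. The most abundant were Gbp2, Bst2 and Irgm1. The highest library had 4.45 times the CPM of the lowest for Mx1, but 1.02 times for Bst2. The summed level of the 8 was 889 CPM (a gene's counts scaled to a library total of 1000000) in replicate 1, 687 in replicate 2 and 633 in replicate 3, and all 8 were highest in replicate 1, against 45.7% of the 11224 genes that reached 1 CPM in every library. Values of Vcam1 and its ratio to Icam1 are therefore also given without replicate 1.

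Leukocytes leave the blood by rolling on selectins, arresting through integrins that bind members of the immunoglobulin superfamily, and crossing between cells. E-selectin (Sele) and P-selectin (Selp) serve the first step. VCAM-1 (Vcam1) binds integrins that contain the α4 chain, MAdCAM-1 (Madcam1) binds the pair of α4 and β7 chains on gut-homing lymphocytes, and ICAM-1 and ICAM-2 (Icam1, Icam2) bind integrins of the β2 family. ALCAM (Alcam, CD166) binds CD6 on T cells and also itself, and MCAM (Mcam, CD146) is found at endothelial junctions and on pericytes. Vcam1, Icam1 and Sele are textbook targets of NF-κB in cytokine-treated endothelium. VCAM-1 and ICAM-1 are also carried by fibroblasts and other stromal cells.

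Promoter sequence from RefSeq (GRCm38.p6), cut to the 250 bases before the transcription start, matched 6 of the 8 members, all but Vcam1 and Icam2. The promoters below are shown because Icam1, Sele and Madcam1 hold letters of the kind NF-κB binds, while Alcam, the most abundant member with a matched promoter, held none of the motifs searched. Capitals mark the matches, the other letters are in lower case, and all 4 are written 5′ to 3′ along the strand of the gene. That of Sele precedes the start of its annotated GENCODE transcript, which lies inside the longer RefSeq gene span.
Icam1, chr9:21015690-21015939, plus strand: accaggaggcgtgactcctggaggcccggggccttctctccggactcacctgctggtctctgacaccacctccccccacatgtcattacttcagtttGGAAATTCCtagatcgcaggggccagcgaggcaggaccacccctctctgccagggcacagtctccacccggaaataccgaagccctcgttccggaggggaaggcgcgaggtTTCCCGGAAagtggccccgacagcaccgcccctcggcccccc
Sele, chr1:164047984-164048233, plus strand: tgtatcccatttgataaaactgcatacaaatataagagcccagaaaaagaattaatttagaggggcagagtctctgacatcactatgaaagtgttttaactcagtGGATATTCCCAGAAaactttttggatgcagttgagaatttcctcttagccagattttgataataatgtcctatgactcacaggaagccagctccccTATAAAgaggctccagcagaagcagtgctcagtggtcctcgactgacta
Madcam1, chr10:79664309-79664558, plus strand: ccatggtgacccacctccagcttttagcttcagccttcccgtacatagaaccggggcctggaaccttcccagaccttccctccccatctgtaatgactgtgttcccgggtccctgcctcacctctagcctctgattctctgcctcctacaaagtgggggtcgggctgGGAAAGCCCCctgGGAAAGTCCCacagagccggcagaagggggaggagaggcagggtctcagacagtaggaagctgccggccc
Alcam, chr16:52453082-52453331, minus strand: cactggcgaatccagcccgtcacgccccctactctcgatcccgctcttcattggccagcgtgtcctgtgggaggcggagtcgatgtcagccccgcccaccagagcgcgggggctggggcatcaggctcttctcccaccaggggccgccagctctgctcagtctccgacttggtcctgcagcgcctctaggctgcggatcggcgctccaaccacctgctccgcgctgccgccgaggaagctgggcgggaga

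The search covered both strands and 4 motifs, namely the NF-κB consensus, the letters GGANNTTCC, the STAT-like letters TTCNNNGAA and the TATA box letters TATAAA. Icam1 held GGAAATTCC from position -153 to -145 before the start, letters known from an NF-κB site of the human ICAM1 promoter, and TTCCCGGAA from -42 to -34. Sele held GGATATTCC from -145 to -137, a STAT-like match from -140 to -132 that overlaps it, and TATAAA from -49 to -44. Madcam1 held matches to the NF-κB consensus from -83 to -74 and from -70 to -61, both on the minus strand, so that the capitals above are the reverse complement of the motif. The minus strand also matches GGANNTTCC from -70 to -62. Icam1 and Sele held the looser letters GGANNTTCC but no match to the NF-κB consensus. Selp and Mcam, like Alcam, held no match in this window. Among 27025 promoters of the same length, 3.75% held the NF-κB consensus, 3.56% GGANNTTCC, 7.18% TTCNNNGAA and 13.0% TATAAA. A match to these letters is not a measured binding site. The promoters also differed in CpG content. The observed over expected CpG ratio was 0.742 for Alcam and 0.739 for Mcam, at the 76.2 and 76.0 percentiles of all promoters, and 0.580 for Icam1. It was 0.259 for Madcam1, 0.172 for Selp and 0.0980 for Sele, against a median of 0.378 over all promoters.

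Vcam1 far exceeded every other member. It lies on the minus strand of chromosome 3, 116110020 to 116129688 (GRCm38). It had 35419, 34565 and 34455 counts in IL-1 replicates 1, 2 and 3, or 2053, 1911 and 1855 CPM. The level was thus similar in the 3 libraries and a little higher in replicate 1. In bulk RNA, fewer cells with a transcript and less of it per cell cannot be told apart. The mean was 1939 ± 102 CPM (SD, n = 3), and 1883 CPM without replicate 1. By this mean Vcam1 ranked 28 among all gene IDs, took 0.194% ± 0.0102 of all counts, and made up 84.6% ± 0.711 of the summed CPM of the 8 members.

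Since longer transcripts yield more reads, levels of different genes were compared as CPM per kb of merged exons. On that scale Vcam1 had 231, 215 and 209 CPM per kb in the 3 libraries. The mean was 219 ± 11.5 CPM per kb, 31.6 times the median of 10706 detected protein-coding genes and at their 98.0 percentile, rank 211. The merged exons of Vcam1 span 8870 bases, against 3469 for its curated RefSeq mRNA. Per kb of that mRNA the level was 559 ± 29.5 CPM per kb, at the 99.1 percentile of genes treated the same way. By mean CPM per kb of merged exons, Strap, Slc25a5 and Ywhab ranked just above Vcam1 and Tubb5, Vdac1 and Arhgdia just below. Their means lay between 217.6 and 220.2 CPM per kb. Tubb5 encodes a tubulin chain, and Slc25a5 and Vdac1 encode channels or carriers of mitochondrial membranes. The 6 were neighbours of Vcam1 in the ranking by mean level over these 3 libraries, which says nothing of shared function.

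**Figure D1:**
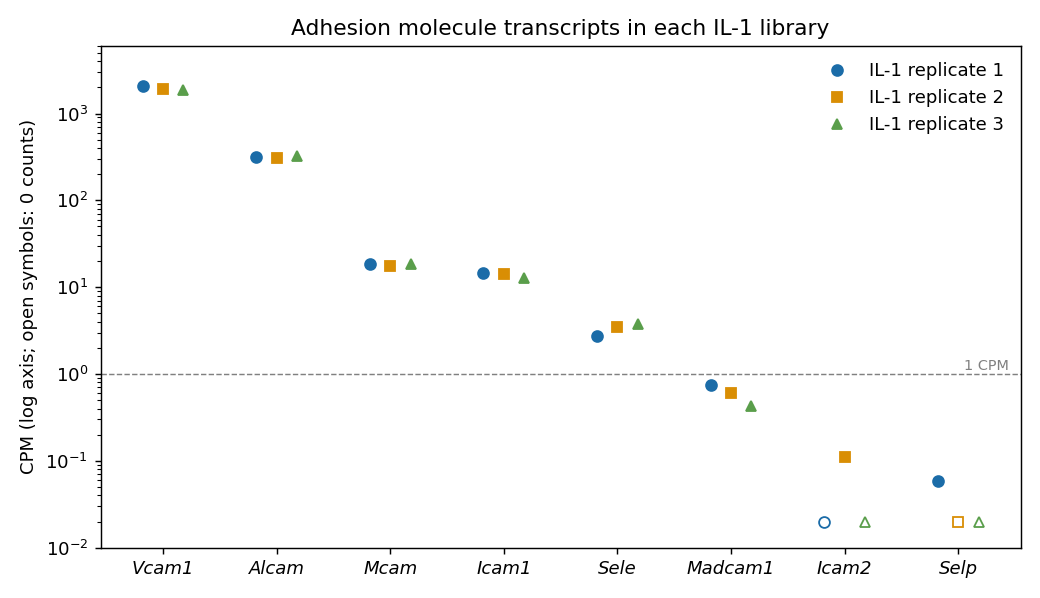
CPM (log axis) of the 8 adhesion molecules in each of the 3 IL-1 libraries, ordered by mean CPM per kb; each symbol is 1 library, open symbols at the foot are libraries with 0 counts, and the dashed line is 1 CPM. Vcam1 lies between 1855 and 2053 CPM, and Alcam, the next member, between 307 and 321 CPM.

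The other immunoglobulin-like members with stable detection were Alcam, Mcam and Icam1. Alcam (chromosome 16, 52248996 to 52453081) had 5480, 5562 and 5957 counts, or 318, 307 and 321 CPM, with a mean of 315 ± 6.91 CPM. The 3 libraries hardly differed. Its level per length was 44.3 ± 0.970 CPM per kb, at the 87.3 percentile of detected protein-coding genes. Vcam1 was 5.19, 4.99 and 4.64 times as high as Alcam per kb of merged exons in replicates 1, 2 and 3, a mean of 4.94 ± 0.276. Per kb of RefSeq mRNA the mean ratio was 10.7, because the merged exons of Vcam1 are much longer than its mRNA and those of Alcam are not.

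Mcam (chromosome 9, 44134658 to 44142727) had 318, 317 and 346 counts, or 18.4, 17.5 and 18.6 CPM. The libraries were again close, with a mean of 18.2 ± 0.588 CPM and 5.43 ± 0.175 CPM per kb, at the 44.0 percentile. Vcam1 was 40.3 ± 2.36 times as high per kb of merged exons and 91.9 times per kb of RefSeq mRNA.

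Icam1 was low. It lies at 21015940 to 21028814 on chromosome 9 and had 248, 258 and 238 counts, or 14.4, 14.3 and 12.8 CPM, with a mean of 13.8 ± 0.872 CPM. Per kb of merged exons it stood at 3.17 ± 0.200, at the 31.8 percentile of detected protein-coding genes and 0.457 times their median. Vcam1 exceeded Icam1 70.2-, 65.9- and 71.2-fold in replicates 1, 2 and 3, a mean of 69.1 ± 2.83, and 68.5 without replicate 1. Per kb of RefSeq mRNA the ratio was 103. Vcam1 and Icam1, which textbooks pair as cytokine-induced integrin ligands, thus differed widely in level in each library. The size of the gap depended on the gene length used. The set was chosen with the level of Vcam1 known, so the gap is a description. Icam1 and Mcam were neighbours in the order of levels. Mcam was 1.71 times as high per kb of merged exons, but only 1.12 times per kb of RefSeq mRNA, at 6.09 ± 0.197 for Mcam and 5.45 ± 0.344 for Icam1, where the ranges over the libraries were close without overlapping.

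**Figure D2:**
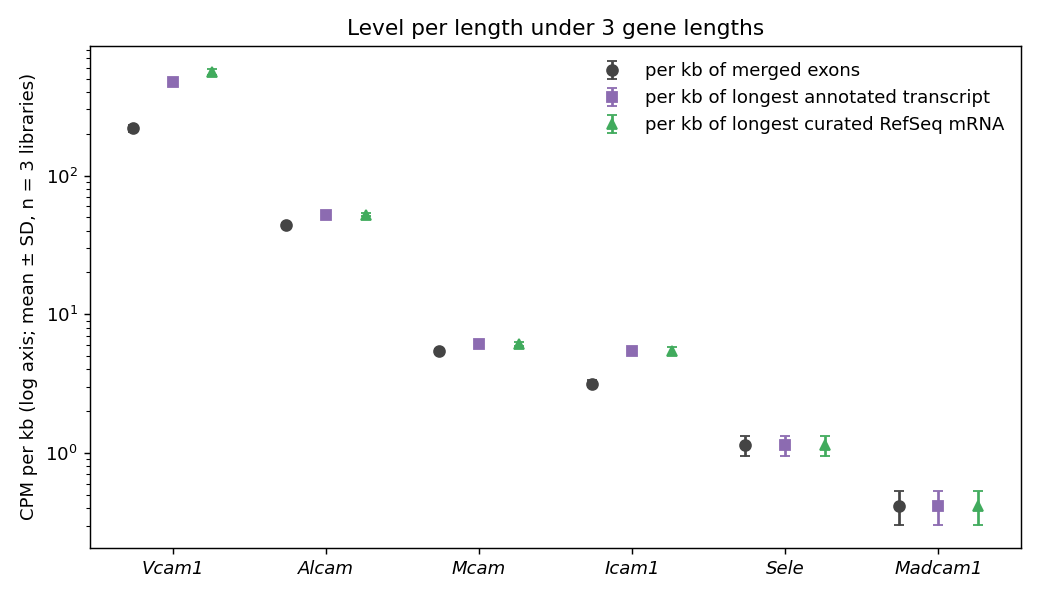
Mean CPM per kb (log axis) with SD over the 3 IL-1 libraries for the 6 members counted in every library, computed with merged exons (circles), the longest annotated transcript (squares) or the longest curated RefSeq mRNA (triangles). The order of the 6 members is the same with each length, Vcam1 lies at 219 CPM per kb of merged exons and 559 per kb of RefSeq mRNA, and Mcam and Icam1 come close to each other with either transcript length.

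Sele and Selp both lie on chromosome 1. They span 164039614 to 164058487 (Sele) and 164115264 to 164150026 (Selp). Sele, which is known mainly from activated endothelium, had 47, 63 and 70 counts, or 2.72, 3.48 and 3.77 CPM. It was detected in each library, lowest in replicate 1, with a mean of 3.32 ± 0.539 CPM and 1.14 ± 0.185 CPM per kb, at the 12.9 percentile. Vcam1 was 196 ± 45.2 times as high per kb of merged exons and 502 times per kb of RefSeq mRNA. Selp had 1 count over the 3 libraries, in replicate 1, or 0.0185 CPM over all counts with an exact 95% Poisson interval of 0.000470 to 0.103 CPM. The ratio of Vcam1 to Selp, over the summed counts, was 51960 with a 95% counting interval of 9326 to 2052329. Intervals of this kind cover counting error only. Sele thus reached 1 CPM in every library, and Selp in none.

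Madcam1 (chromosome 10, 79664559 to 79668542) had 13, 11 and 8 counts, or 0.753, 0.608 and 0.431 CPM. All 3 libraries were below 1 CPM, with a mean of 0.597 ± 0.162 CPM and 0.416 ± 0.113 CPM per kb. Icam2 (chromosome 11, 106377656 to 106388139), a ligand that resting endothelium and platelets carry, had 0, 2 and 0 counts, or 0.0371 CPM over all counts with an interval of 0.00449 to 0.134 CPM. Icam2 and Selp could not be ordered, as their values overlapped at 0. Vcam1 was 549 ± 133 times as high as Madcam1 per kb of merged exons, and 1404 times per kb of RefSeq mRNA. The ratio to Icam2, over the summed counts, was 11209 with a 95% counting interval of 3103 to 92558. The ratio was 7408 without replicate 1 and 19298 per kb of RefSeq mRNA. The interval covers counting error only and cannot bear on a change of library or gene length. The relatives of Icam1 in the same cluster on chromosome 9 were lower than it per kb, with 2, 0 and 6 counts of Icam4 and 13, 10 and 19 counts of Icam5, or 0.132 and 0.263 CPM per kb.

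In all, 5 of the 8 members reached 1 CPM in every library, against 41.3% of all gene IDs and 51.1% of protein-coding genes. Members were protein-coding by choice, and a share of 5 in 8 of so small a set is close to that background. The order from Vcam1 through Alcam, Mcam, Icam1 and Sele to Madcam1 was the same in each library, with no overlap between neighbours.

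**Figure D3:**
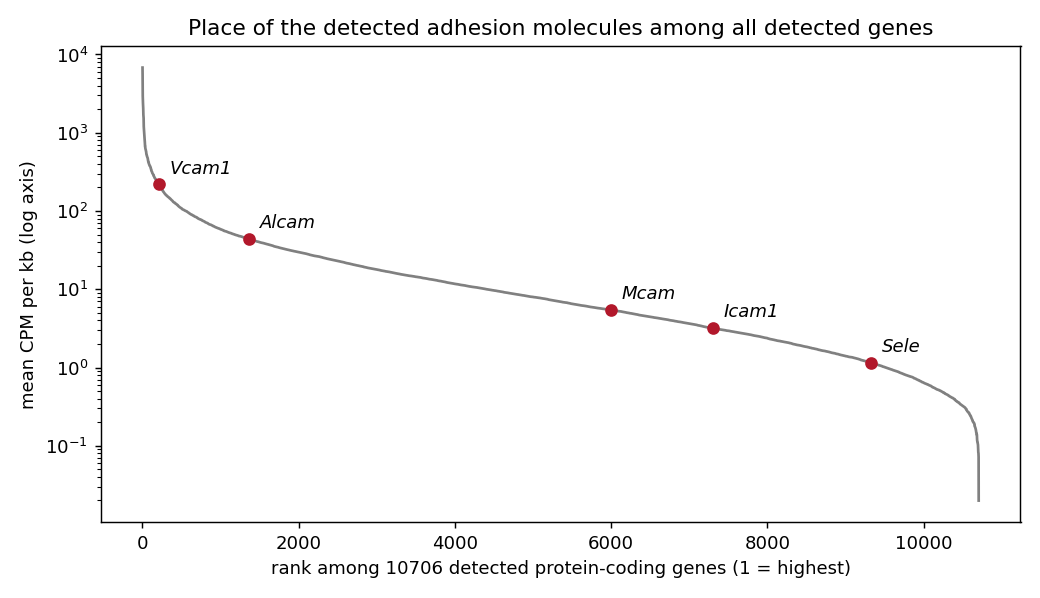
Mean CPM per kb of merged exons (log axis) against rank for 10706 detected protein-coding genes (grey line), with the 5 detected adhesion molecules as red points. Vcam1 sits at rank 211 and Alcam at rank 1363, whereas Mcam, Icam1 and Sele lie in the lower part of the curve at ranks 5994, 7303 and 9327.

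Vcam1 varied between libraries by more than counting error gives. Its coefficient of variation (CV, the SD over the mean) was 5.27%, against 0.536% that counting error alone would give at its depth. Alcam had a CV of 2.19% against a counting error of 1.33%. For Icam1 the CV was 6.31% and the counting error 6.35%, and for Mcam 3.23% and 5.53%, so their libraries differed by no more than counting error. Sele had a CV of 16.2% and a counting error of 12.9%. The median CV over the 11224 genes at 1 CPM or more was 8.56%. Among the 5 detected members, Vcam1 and Icam1 were highest in replicate 1, none was highest in replicate 2, and Alcam, Mcam and Sele were highest in replicate 3. The shares over all detected genes were 45.7%, 27.1% and 27.3% for replicates 1, 2 and 3, and no pattern can be read from 5 genes. The interferon-stimulated genes were highest in replicate 1 too, and their part in the small excess of Vcam1 there was not tested.

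**Figure D4:**
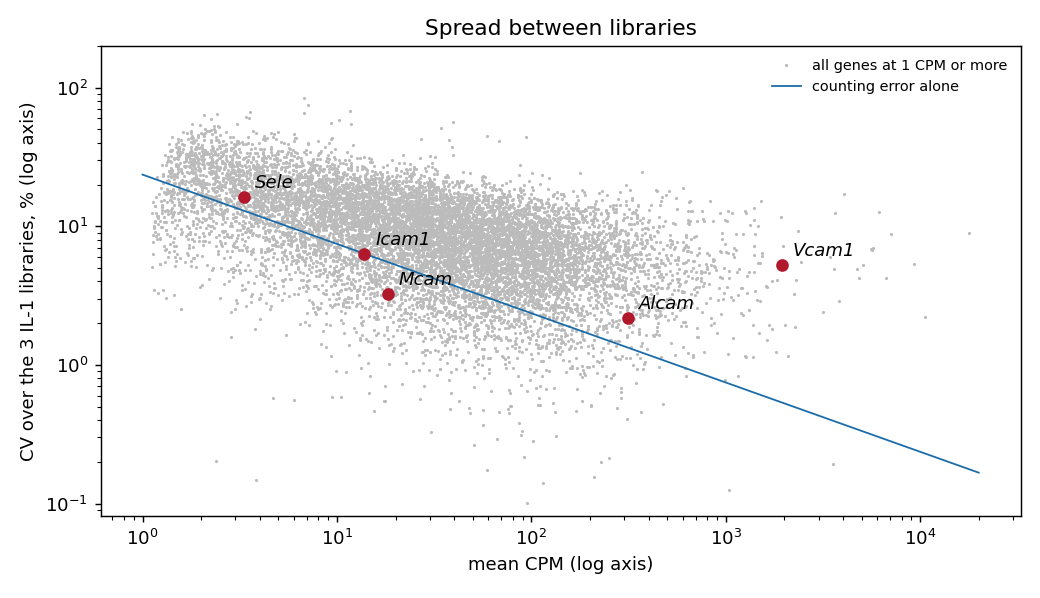
CV over the 3 IL-1 libraries (log axis, %) against mean CPM (log axis) for the 11224 genes at 1 CPM or more in each library (grey) and the 5 detected adhesion molecules (red); the blue line is the CV that counting error alone gives at the mean library size. Icam1 and Mcam lie at or under the line and Vcam1 far above it, at a CV of 5.27%.

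The α chains of the integrins that bind VCAM-1 were near the floor in these cells, while their β1 chain was high. Of 14 listed counter-receptor genes of the members, 5 reached 1 CPM in every library, against 51.1% of protein-coding genes. Itgb1, the β1 chain, was abundant, with 1038 ± 44.1 CPM. Scaled to merged exons, Vcam1 stood at 219 CPM per kb, against 254 for Itgb1. Merged exons span 8870 bases for Vcam1 and 4081 for Itgb1, against 3469 and 3815 for their RefSeq mRNAs. The order of these genes therefore depends on the length used. Itga4, the α4 chain that VCAM-1 and MAdCAM-1 engage, had a single count in replicate 1, and Itga9 had 4, 3 and 0 counts. Itgb7 was detected at 11.4 ± 1.53 CPM. Of the β2 family, Itgb2 was at 4.27 ± 0.826 CPM, with Itgal, the α chain of the ICAM receptor LFA-1, at 2, 7 and 4 counts. The selectin ligands Cd44 and Glg1 were abundant at 593 ± 15.1 and 144 ± 8.63 CPM, whereas Selplg, the main P-selectin ligand of leukocytes, had 1, 0 and 1 counts. Cd6, the receptor for ALCAM, had none. The median over the 8 members was 2.16 CPM per kb, against 0.0942 over the 14 genes. Both lists were chosen with earlier results of these data known, so this gap is a description only.

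Of 12 other adhesion genes listed from the immunoglobulin superfamily, 4 reached 1 CPM in every library, against 51.1% of protein-coding genes. They were led by Bsg (basigin) at 866 ± 49.4 CPM, Ncam1 at 198 ± 13.7 CPM and Cadm1 at 110 ± 9.22 CPM. Per kb of merged exons Vcam1 stood at 219 CPM per kb, against 478 for Bsg. The merged exons of Bsg span 1814 bases, against 1526 for its RefSeq mRNA, so this gap also depends on the length used. Of 11 junction molecules used in leukocyte passage, 7 were detected, against the same 51.1%. They were led by Cd47 at 462 ± 5.30 CPM, Jam3 at 127 ± 5.44 CPM and Cd99l2 at 52.9 ± 0.583 CPM. All 3 are also found outside endothelium. Pecam1 and Cdh5, which hold endothelial junctions, were near 0.

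Proteases known to shed VCAM-1, ICAM-1, ALCAM or selectins from the surface were detected in 7 of 9 cases, against 51.1% of protein-coding genes. Adam9 was highest at 175 ± 13.1 CPM, followed by Mmp14 at 120 ± 17.8 CPM and Mmp9 at 93.2 ± 10.5 CPM. Adam17, the main sheddase of VCAM-1 and ALCAM, stood at 89.6 ± 4.28 CPM and Adam10 at 45.5 ± 5.10 CPM. Of the neutrophil proteases, Ctsg had 0, 3 and 0 counts and Elane had none. All 8 genes for proteins that tie adhesion molecules to actin were detected, with Msn (moesin) at 484 ± 52.6 CPM, Flna (filamin A) at 354 ± 9.68 CPM and Cttn (cortactin) at 281 ± 24.6 CPM. Of these 8, 7 were highest in replicate 1, against 45.7% of all detected genes.

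**Figure D5:**
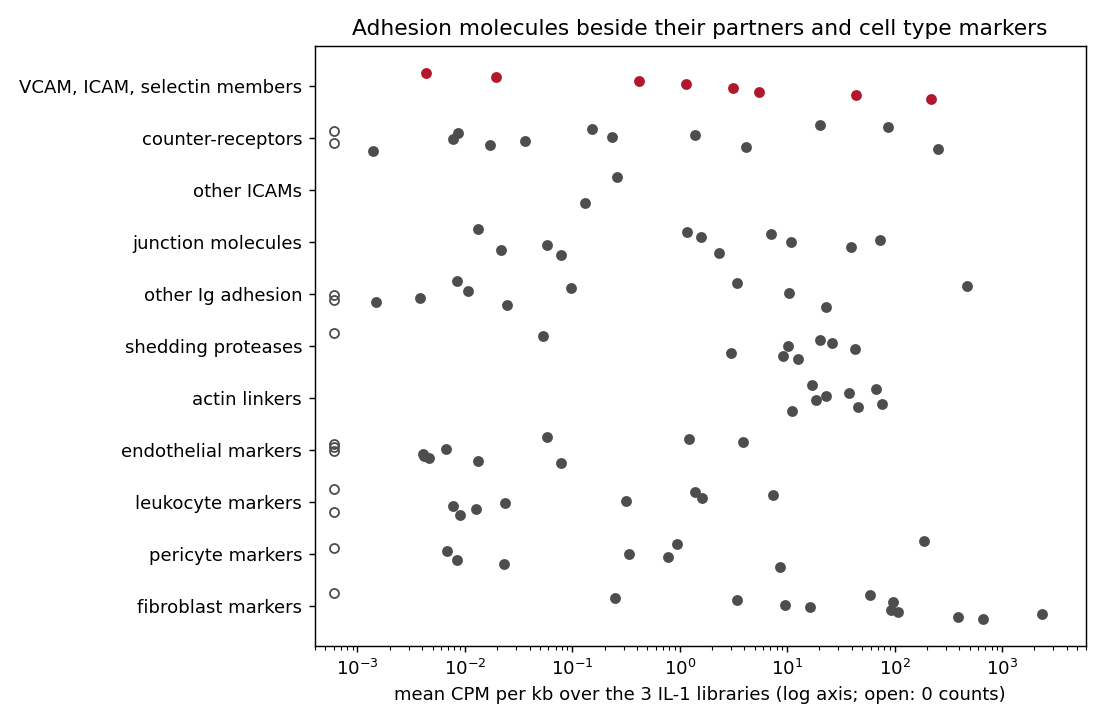
Mean CPM per kb of merged exons over the 3 IL-1 libraries (log axis) of the 8 adhesion molecules (red) and of listed partner and marker genes (grey), 1 point per gene; open points at the left edge have 0 counts, and the vertical offset only separates points. Vcam1 at 219 CPM per kb lies within the wide range of the fibroblast markers, and the pericyte marker Acta2 is at 189. Most endothelial, leukocyte and other pericyte markers lie below 1 CPM per kb.

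The cells matched their label as fibroblasts by most of the listed markers. Of 12 fibroblast markers, 10 were detected, with Vim at 3162 ± 76.6 CPM, Sparc at 1484 ± 25.3 CPM and S100a4 at 1388 ± 154 CPM. Thy1 was at only 10.2 ± 0.644 CPM, Lum had 10, 21 and 2 counts, and Fap had none. The share detected over all protein-coding genes, for this and the marker lists below, was 51.1%. Of 12 endothelial markers, Egfl7 at 13.8 ± 0.649 CPM and Plvap at 2.42 ± 0.727 CPM were detected. Pecam1 followed at 0.485 ± 0.136 CPM, and Tie1, Cldn5 and Erg had no count. Vcam1 had 1855 to 2053 CPM over the libraries, against a summed endothelial level of 16.4 to 17.7 CPM, mostly Egfl7. Of 10 leukocyte markers, 4 were detected, with Lyz2 at 9.69 ± 2.70 CPM, Itgb2 at 4.27 CPM and Cd68 at 2.05 ± 0.945 CPM, and a sum of 15.8 to 21.3 CPM. Cd3e and Spi1 had no count and Ptprc 3, 0 and 6. Of 9 pericyte markers, which bear on Mcam, 5 were detected, led by Acta2 at 414 ± 21.7 CPM, Pdgfrb at 47.0 ± 6.86 CPM and Notch3 at 7.66 ± 1.15 CPM. Acta2 and Pdgfrb are also expressed by fibroblasts, and the summed pericyte level was 465 to 490 CPM. Rgs5 had 2, 0 and 0 counts and Kcnj8 none.

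Vcam1 was higher per kb than each gene around it, but at its 98.0 percentile few detected protein-coding genes anywhere were above it. Of the 11 protein-coding genes within 500000 bases of it, 10 were detected, against 51.1% of all protein-coding genes. The median of the 11 was 7.47 CPM per kb, and none was above Vcam1. The highest was Rtca at 90.3 ± 1.59 CPM per kb. S1pr1, a sphingosine phosphate receptor gene among these neighbours, was at 33.9 CPM per kb. Around Icam1, 21 of 35 such genes were above it per kb, with Eif3g highest at 149.7 ± 7.29. Icam1 stood at the 31.8 percentile, so most detected protein-coding genes were above it in any case. Gene models on the opposite strand overlap Vcam1, Icam1, Mcam and Selp in the annotation, and the strand setting of the counting is not given in the sources used here, so reads of a member and of its partner could not be told apart. Gm10687, opposite Mcam, had 7 counts over the 3 libraries, and Gm16548, opposite Selp, had 0. The partners of Vcam1 (Gm43109) and Icam1 (Gm47079), and Gm16587 opposite Selp, matched no symbol among the counted gene IDs.

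AU-rich pentamers (ATTTA), which are known to mark short-lived messages of inflammatory genes, were counted in the 3′ UTR of each member's RefSeq mRNA. Icam1 held 4 in 874 bases and Vcam1 3 in 931 bases, or 4.58 and 3.22 per kb, at the 90.9 and 81.5 percentiles of 17760 genes. Vcam1 also held 1 longer AU-rich element of 9 letters, which 15.7% of genes have, and Icam1 none. Alcam held 7 pentamers in a longer UTR of 2678 bases, or 2.61 per kb, and Sele and Selp held 2 each. Icam2 and Madcam1, with the shortest UTRs of 154 and 173 bases, held none. The median over all genes was 1.27 per kb. These are letter counts and no decay rate was measured.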

How the data were processed

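Per the labels' protocols, cells were lysed in detergent, reverse transcribed without RNA extraction, pre-amplified and prepared with a transposase kit. The deposited tables hold raw counts per Entrez gene ID. CASAVA, STAR, featureCounts and mm10 are named in the submitters' processing notes. Versions, the strand setting and the handling of reads that map to several places were not given in the sources used here. No molecular identifiers are mentioned, and counts were taken as reads.

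CPM were computed from library totals (17254518 to 18578859 counts). Detection means at least 1 CPM in each of the 3 libraries. In 1 library, 0 counts allow 3 counts, or 0.161 to 0.174 CPM. RefSeq GRCm38.p6, the assembly of mm10, gave symbols for 25275 of 27179 IDs, and IDs without one held 2.14% of counts. GENCODE M21 gave lengths for 24842 IDs; the RefSeq mRNA length is that of the longest GENCODE transcript tied to a curated RefSeq mRNA. Alternatives were TMM and relative log expression factors, computed in R 4.3.3 with edgeR 4.0.16, other lengths and minimums, and leaving out each library. Python 3.11.15 was used otherwise. The calculations were tested on simulated data.

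The members and gene lists were chosen with earlier results of these data known. All members were named, with the 3 genes of highest mean CPM in each list and the 3 genes above and below Vcam1. Other genes were named after their values were seen. Planned tests between groups were not run, since the other tables were copies.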

Additional observations from a re-analysis of the deposited data

How the results depend on the processing

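No paired analysis was possible because the tables of every other group were copies of an IL-1 library. The choice of gene length moved the levels most. With the longest annotated transcript, Vcam1 stood at 474 CPM per kb (percentile 98.98), and its ratio was 9.09 to Alcam, 78.0 to Mcam, 87.1 to Icam1, 426 to Sele and 1191 to Madcam1. With the longest curated RefSeq mRNA, a length added after the data were seen, Vcam1 stood at 559 (percentile 99.1), and the ratios were 10.7, 91.9, 103, 502 and 1404 in the same order. The merged exons of Vcam1 are longer than its transcripts, which sets this shift by construction. Per kb of RefSeq mRNA the percentiles of Alcam, Mcam, Icam1 and Sele were 83.3, 37.6, 35.1 and 8.41. With merged exons they were 87.3, 44.0, 31.8 and 12.9. TMM or relative log expression factors kept the means of the 6 members counted in every library within 1 SD. The ratios were taken within a library, where such a factor cancels, so these factors could not change them. Leaving out 1 library kept the means and ratios of these 6 members within 1 SD. The mean of Icam2 fell to 0 without replicate 2, as did that of Selp without replicate 1. With 3 libraries, a mean shifts by less than its SD when any of them is dropped. The check by leaving out a library therefore could not fail for the means and ratios of the 6 members. The percentile of Mcam did move by more than its SD over libraries, from 44.0 to 44.7 without replicate 1. The ratio of Vcam1 to Icam1 ranged from 68.0 to 70.7 without 1 library, that to Sele from 171 to 214 and that to Madcam1 from 475 to 603. The ratio to Icam2 could not be computed without replicate 2, nor that to Selp without replicate 1, as no count was left. Without replicate 1 the ratio to Icam2 was 7408, and 7511 without replicate 3, against 11209 from all 3 libraries. That to Selp was 34764 without replicate 2 and 34818 without replicate 3. The 5 detected members stayed 5 at minimums of 0.5 and 2 CPM. At 2 CPM, 1 endothelial and 2 leukocyte markers were detected, against 2 and 4 at 1 CPM, and at 0.5 CPM 1 relative, against 0. The pericyte markers detected were 4 at 2 CPM, against 5, and the stromal organizer genes 5 at 0.5 CPM, against 4. Depth limits Madcam1, Icam2 and Selp, each with 32 counts or fewer in all.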

Other observations

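Genes of lymphoid stromal organizer cells, which carry VCAM-1, ICAM-1 and MAdCAM-1 in lymph nodes, were measured as well. Of 9 listed, 4 were detected, against 51.1% of all protein-coding genes. The surface glycoprotein Pdpn stood at 136 ± 11.8 CPM (SD, n = 3), and the receptors Tnfrsf1a and Ltbr at 82.1 ± 10.7 and 66.2 ± 8.93 CPM. Il7 was at 8.65 ± 1.81 CPM. The homeostatic chemokines Ccl19 and Ccl21a had no count and Cxcl13 had 1.

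Of 9 enzymes that build selectin ligands, 4 were detected, against 51.1% of protein-coding genes. The tyrosine sulfotransferases Tpst1 and Tpst2 stood at 158 ± 10.2 and 137 ± 9.19 CPM, the galactosyltransferase B4galt1 at 57.9 ± 9.27 CPM and the sialyltransferase St3gal4 at 40.9 ± 0.893 CPM. The fucosyltransferase Fut4 had no count and Fut7, which completes the sialyl Lewis x group in leukocytes, had 2, 6 and 13.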
